A study of Mus musculus with 5 samples.

Results

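The developing mouse cerebellum was profiled on arrays 1 time before birth, at embryonic day 18 (E18), and 4 times after it, at postnatal day 7 (P7), 14 (P14), 21 (P21) and 56 (P56, adult). Every age is represented by a single column, a mean over 2 arrays of total RNA. The sources used here name no strain, sex, genotype or number of animals, and do not say if the 2 arrays had RNA of separate animals. The account is of 4 transcription factor genes, Ebf1, Ebf2, Ebf3 and En1, measured by 5 probes of the 897 in the table. Ebf3 has 2 probes, called by their numbers 207 and 801, and the other genes have 1 each. The members were chosen by gene symbol, among the 787 probes with a single symbol (773 genes), and with their measured values at all 5 ages already known. The values below therefore describe them and no test is made. Ebf4, En2 and the Ebf partner genes Zfp423 and Zfp521 have no probe with a single symbol of that name here, and were not analysed.

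The Ebf genes (early B-cell factor, also called O/E or COE genes) encode DNA-binding proteins with a zinc-coordinating domain and a helix-loop-helix region through which they pair. They act in neurons that leave the cell cycle, migrate and extend axons, and outside the brain in B cells and fat cells. Ebf2 is known in the cerebellum from mutant mice, in which Purkinje cells are lost and their pattern of stripes is disturbed. En1 encodes the engrailed homeobox protein 1, which acts at the boundary of midbrain and hindbrain from which the cerebellum arises and later, with En2, in the pattern of its folds and stripes.

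The promoters of 3 of the 4 genes were found in RefSeq's promoter table of mouse assembly GRCm38.p6, and they are shown because all 5 member probes had their highest value at E18. Each run gives the 250 bases before an annotated transcription start, 5′ to 3′ on the gene's strand, and capitals mark the core CCCNNGGG to which Ebf proteins bind. The array's own build is not given, so these positions belong to the genes and not to the probes.
Ebf1, plus strand, chr11:44617850-44618099: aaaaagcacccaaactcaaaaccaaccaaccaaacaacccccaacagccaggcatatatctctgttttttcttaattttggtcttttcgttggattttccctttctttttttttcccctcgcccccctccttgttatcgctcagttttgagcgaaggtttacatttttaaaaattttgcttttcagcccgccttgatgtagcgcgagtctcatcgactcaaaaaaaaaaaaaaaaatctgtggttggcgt
Ebf3, minus strand, chr7:137314446-137314695: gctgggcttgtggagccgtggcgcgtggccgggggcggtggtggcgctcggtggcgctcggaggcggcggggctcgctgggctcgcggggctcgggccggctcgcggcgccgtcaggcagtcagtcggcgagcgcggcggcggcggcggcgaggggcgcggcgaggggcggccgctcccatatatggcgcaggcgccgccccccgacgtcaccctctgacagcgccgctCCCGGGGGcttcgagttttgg
En1, plus strand, chr1:120602237-120602486: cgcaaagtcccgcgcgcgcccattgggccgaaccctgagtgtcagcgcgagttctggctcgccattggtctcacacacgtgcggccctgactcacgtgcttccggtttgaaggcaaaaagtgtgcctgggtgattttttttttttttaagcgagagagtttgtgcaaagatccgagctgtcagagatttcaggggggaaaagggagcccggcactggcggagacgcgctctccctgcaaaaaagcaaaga

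The Ebf core was searched on both strands, of which it reads the same, over the 300 bases that include 50 from the start onward. Ebf3 held 1 match, beginning 21 bases before the start, and the windows of En1 and of both annotated Ebf1 starts held 0. This core was held by 13.7% of the 32851 mouse promoters given there. Their median share of G and C was 52.7%, below the 77.0% of the Ebf3 window, and the 13.7% was not matched for base composition. The homeodomain core TAATTA, searched the same way, had 0 matches in the members' windows and was held by 5.29% of all promoters. The windows differed in base composition. Ebf3 had 77.0% G and C with 46 CG pairs, more CG pairs than 98.4% of promoters, En1 had 57.0% with 23 pairs, and Ebf1 had 36.7% with 9 at the start shown and 53.0% with 17 at its other annotated start. A match is a run of letters and does not show binding.

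All 5 probes had their highest value, 100%, at E18, and all were 2-fold or more lower in the adult at P56. Values lie between 0.01 and 100, and were taken to be percentages of the age at which the probe was highest, worked out per experiment before averaging. Such a percentage compares ages of 1 probe, and is no amount that can be ranked between genes. On this scale a mean of exactly 100 places both experiments at their highest at E18, and 177 of the 897 probes (19.7%) share that. Ebf3 was lower in the adult by more than 10-fold on both of its probes, and Ebf1, Ebf2 and En1 were lower by between 2.93-fold and 4.46-fold. In whole tissue, fewer cells of a type and less RNA per cell cannot be told apart, nor can growth of other cells.

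Ebf2 stood at 100% at E18, 38.45% at P7, 21.59% at P14, 18.07% at P21 and 26.65% at P56. It was the lowest of the 5 probes at P7, and its smallest value was at P21. From E18 to P56 Ebf2 fell 3.75-fold, a log2 difference of -1.91. Ebf1, best known as a regulator of B-cell development and also active in neurons, stood at 100%, 63.46%, 45.49%, 28.25% and 34.10% at the same ages. It was the highest of the 5 probes at P14, P21 and P56, and fell 2.93-fold to P56 (log2 -1.55). En1 stood at 100%, 83.14%, 27.49%, 18.22% and 22.40%. It had the highest percent of the 5 probes at P7, stood close to Ebf2 at P21, and fell 4.46-fold to P56 (log2 -2.16).

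Ebf3, which acts in the development of neurons, was read as 100%, 48.30%, 10.81%, 3.35% and 4.58% by probe 207. Probe 801 read 100%, 48.84%, 12.59%, 10.13% and 8.85%. Both probes were below every other member from P14 on. From E18 to P56 Ebf3 fell 21.8-fold by probe 207 (log2 -4.45) and 11.3-fold by probe 801 (log2 -3.50).

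**Figure D1:**
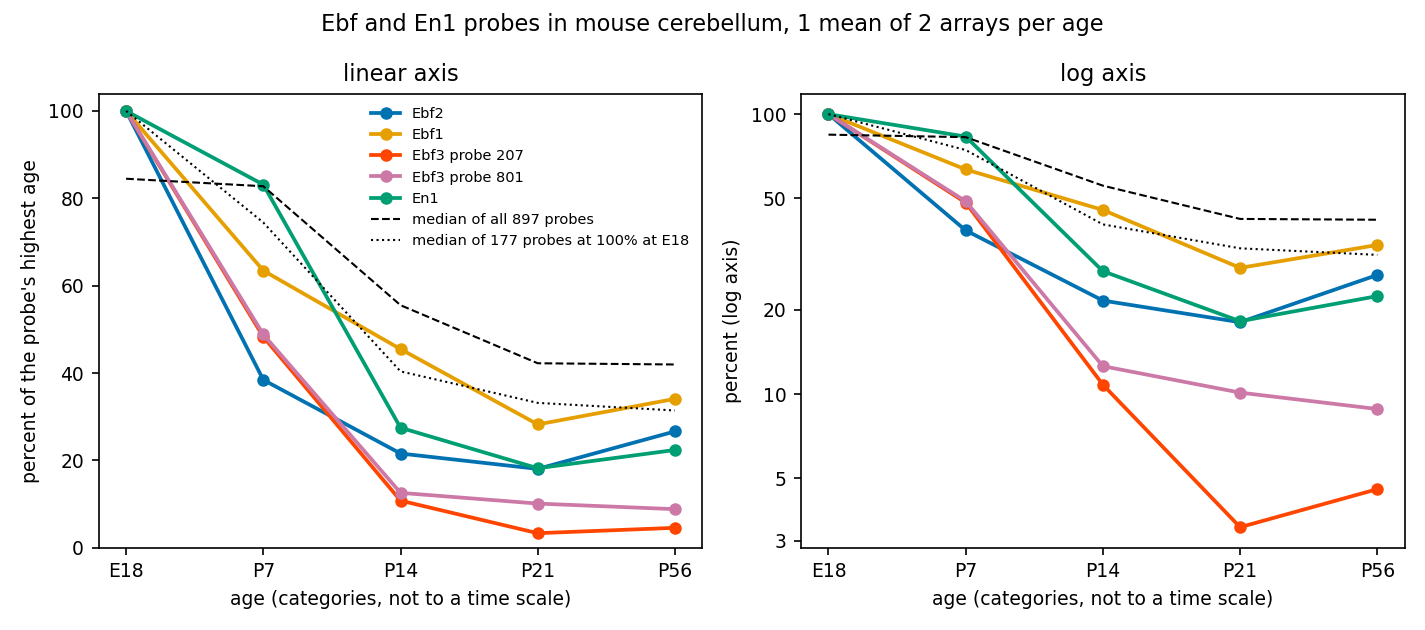
Percent of each probe's highest age (vertical axis, linear on the left and logarithmic on the right) against age, with 1 point per age and no error bar because each point is a deposited mean. All 5 probes start at 100% at E18; at P56 the Ebf3 probes are at 4.58% and 8.85% and the others between 22.4% and 34.1%, with the medians of all 897 probes (dashed) and of the 177 probes at 100% at E18 (dotted) for reference.

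A fall of 2-fold or more from E18 to P56 was common in this table: 471 of 897 probes, 52.5%, showed one and 203 a rise of that size (147 and 272 after median scaling of the columns, 206 and 246 with quantile normalization). That all 5 member probes did is read against that share and sets nothing apart. The median over all probes was -1.07 (log2), and relative to it Ebf1 differed by -0.48, Ebf2 by -0.84, En1 by -1.09, and Ebf3 by -3.38 on probe 207 and -2.43 on probe 801. Dividing each column by its median moves the median of all probes to -0.06; Ebf2 was then at -0.90 and Ebf1 at -0.54, within 2-fold, while En1 stayed past it at -1.15 and Ebf3 at -3.44 (probe 207) and -2.49 (probe 801). With quantile normalization Ebf1 alone of the 5 was within 2-fold, at -0.96, and Ebf3 was at -3.44 and -2.80. The fall of more than 10-fold was thus not kept on probe 801 under these scalings. Raising values under the 10th percentile, 20.4%, to it put both Ebf3 probes at -2.29. Both probes were under that floor at P56, so the floor alone sets this value. It cannot test the size of their fall. Among the 177 probes at 100% at E18, whose median at P56 was 31.4%, probe 207 of Ebf3 was the 6th lowest and probe 801 the 14th, while En1 was the 48th, Ebf2 the 62nd and Ebf1 the 97th. Ebf1 thus lay above that median and the others below it.

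The spread between the arrays of an age was not analysed here, but the percent scale sets limits if both experiments lie between 0 and 100. Where 2 ages are more than 50 points apart, the order of those ages must then be shared by both experiments. E18 was above P14, P21 and P56 in both experiments for all 5 probes by this rule, and above P7 for Ebf2 and both Ebf3 probes. For En1, P7 was also above P14, P21 and P56 in both experiments. With E18 at 100% in both, the fall to P56 was in each experiment at least 10.9-fold for probe 207 of Ebf3 and at least 5.65-fold for probe 801. The same lower limit was 2.23-fold for En1, 1.88-fold for Ebf2 and 1.47-fold for Ebf1. No difference among P14, P21 and P56 was large enough for this rule in any member. Between members the gap never passed 50 points either, the widest being 44.7 points between En1 and Ebf2 at P7.

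The members differed in when they went down. From E18 to P7 Ebf2 fell 2.60-fold, and Ebf3 fell 2.07-fold on probe 207 and 2.05-fold on probe 801, so that 3 of the 5 member probes passed 2-fold. Over all probes 25 of 897, or 2.79%, fell 2-fold or more in this step (59 with quantile normalization), and the median was 0.05 (log2). Ebf2 had the 7th largest fall of the 897 probes, and the Ebf3 probes the 18th and the 21st. A probe at 100% at E18 cannot rise on this scale, and over the 177 such probes the median was -0.43. Among these, Ebf2 was the 7th lowest at P7, the Ebf3 probes the 14th and 16th, Ebf1 the 50th and En1 the 138th. The same number of member probes, 3, passed 2-fold under each scaling tried. With a 1.5-fold threshold it was 4, but none reached 3-fold, which 1 probe of the 897 did. The floors cannot test this count, because every member value at E18 and P7 lies above them. En1 went from 100% to 83.14% and Ebf1 from 100% to 63.46%, both within 2-fold.

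From P7 to P14 the order changed. Ebf3 fell 4.47-fold on probe 207 and 3.88-fold on probe 801, and En1 fell 3.02-fold, again 3 of the 5 member probes. In this step 222 of the 897 probes, 24.7%, fell 2-fold or more, with a median of -0.58, and after median scaling of the columns 105 did. En1 dropped by 55.7 points in this step, the only neighbouring ages after P7 for which any member passed the 50-point rule. Ebf2 went from 38.45% to 21.59% (-0.83, against a median of -0.83 over the 177 probes at 100% at E18). Ebf1 went from 63.46% to 45.49%, a log2 difference of -0.48 that turned to 0.10 with columns divided by their medians.

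From P14 to P21 1 of the 5 member probes fell 2-fold, probe 207 of Ebf3 from 10.81% to 3.35% (3.23-fold), against 118 of 897 probes or 13.2%. Probe 801 of the same gene went from 12.59% to 10.13% (-0.31; 0.08 with columns divided by their medians and 1.03, past 2-fold the other way, with quantile normalization). The difference of probe 207 was -1.30 with columns divided by their medians and -0.21 with quantile normalization. It was 0.00 once low values were raised to 20.4%, which is fixed in advance because both of its values lie under that floor. En1 went from 27.49% to 18.22%, with a log2 difference of -0.59 that was 0.02 with quantile normalization. Ebf2 went from 21.59% to 18.07% (-0.26; 0.14 with columns divided by their medians and 0.45 with quantile normalization). Ebf1 went from 45.49% to 28.25% (-0.69), and kept its sign under the scalings tried.

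From P21 to P56 no member passed 2-fold either way, when 20 of 897 probes (2.23%) fell and 24 (2.68%) rose that far. Ebf2 had the widest difference, from 18.07% to 26.65% (0.56). En1 went from 18.22% to 22.40% (0.30), Ebf1 from 28.25% to 34.10% (0.27) and probe 207 of Ebf3 from 3.35% to 4.58% (0.45). Probe 801 of Ebf3 went from 10.13% to 8.85% (-0.19). Thus 4 of the 5 probes had a higher value at P56 than at P21, as did 52.1% of all probes, and the signs were the same under each scaling and floor tried for this step, apart from values set equal by a floor.

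**Figure D2:**
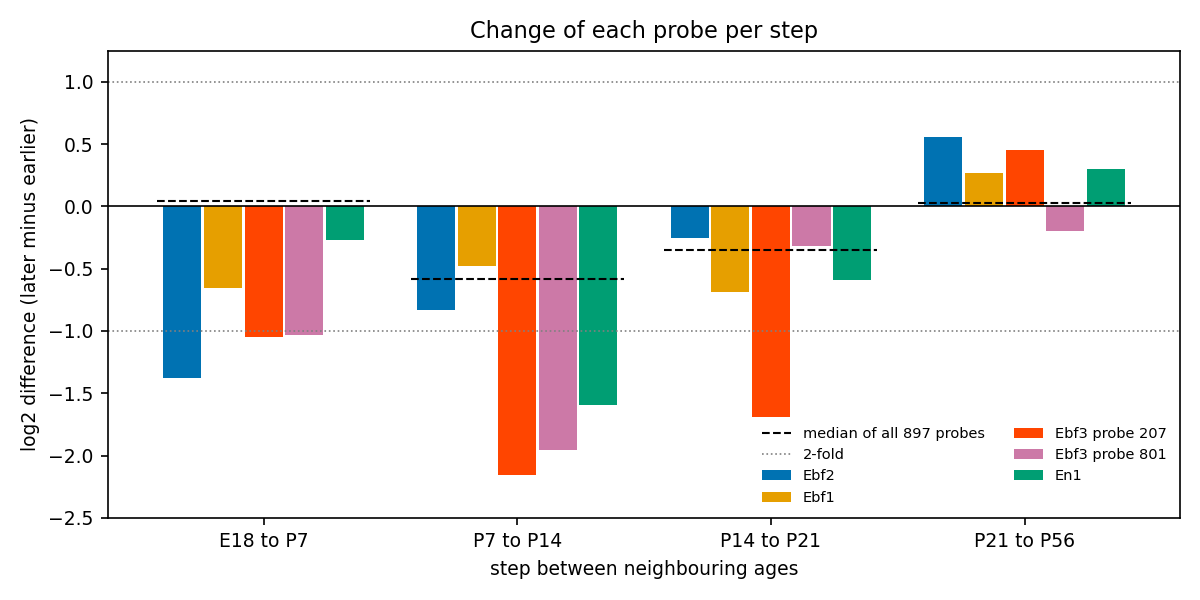
Log2 difference of the later minus the earlier age (vertical axis) for each of the 5 probes in each step (bars), with the median of all 897 probes (dashed) and the 2-fold limits (dotted). Ebf2 has its largest fall from E18 to P7 (2.60-fold), Ebf3 and En1 have theirs from P7 to P14 (4.47-fold and 3.88-fold for the Ebf3 probes, 3.02-fold for En1), and no bar passes 2-fold from P21 to P56.

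The pair of Ebf3 probes gives the one check of a member within these data. The probes were 0.02 apart (log2) at P7 and 0.22 at P14, then 1.60 at P21 and 0.95 at P56. Across the 14 genes with 2 probes the median gap was 0.13 at P7, 0.27 at P14, 0.29 at P21 and 0.40 at P56. Ebf3 had the widest gap of the 14 at P21 and at P56, both times with probe 207 the lower, while in points the probes were at most 6.78 apart. Their P56 against E18 differences were 0.95 apart, the 3rd widest of the 14 after Gnai1 and Atp2a3, where the median was 0.38. Highest age and the direction from E18 to P56 were the same on both probes, as were the calls at E18 to P7 and P7 to P14. From P21 to P56 the directions differed, at 0.45 for probe 207 and -0.19 for probe 801, both within 2-fold. The size of the adult fall of Ebf3 is therefore given by probe as 21.8-fold or 11.3-fold. A 2-fold fall after P14 was seen on probe 207 alone. That fall stayed past 2-fold with columns divided by their medians (-1.30) and with a pseudocount of 1% (-1.44), but quantile normalization (-0.21) ended it. The floor at 20.4% (0.00) cannot test this fall, because probe 207 was under it at both P14 and P21. Both probes were read in the same columns, so their gap leaves out variation between samples and arrays.

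**Figure D3:**
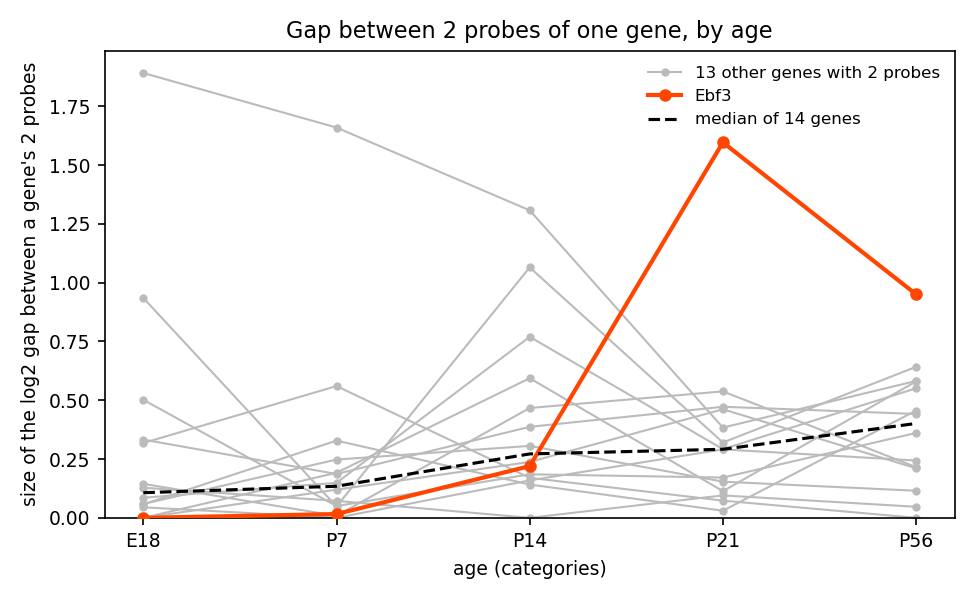
Size of the log2 gap between both probes of a gene (vertical axis) at each age, for Ebf3 (orange), the 13 other genes with 2 probes (grey) and the median of all 14 (dashed). The Ebf3 gap is 0.02 at P7 and 0.22 at P14 and reaches 1.60 at P21, the widest of the 14 at that age.

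Likeness between profiles was measured as the distance of the log2 percent values over the 5 ages, where 0 is an identical profile. The nearest member to Ebf2 was En1, at 1.19, and 13 of the 782 named probes outside the family and En1 lay closer to Ebf2. Ebf1 and En1 were 1.20 apart, with 312 outside probes closer to Ebf1. Ebf2 and Ebf1 were 1.49 apart, and Ebf1 and probe 207 of Ebf3 were the most distant pair at 4.72. Even the Ebf3 probes were 1.87 apart, with 23 outside probes closer to probe 207 and 53 closer to probe 801. The 3 Ebf genes were therefore not each other's nearest profiles.

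Nearest to Ebf2 were Nefm, a neurofilament gene (0.75), Pdpn, the podoplanin gene (0.84), Fbln2, an extracellular matrix gene (0.88), Igfbp2, which encodes a binding protein of insulin-like growth factors (0.90), and Selenoh, a selenoprotein gene (0.99). Nefm stood at 30.8% at P7, the only one of the 5 below Ebf2 at that age. Nearest to Ebf1 were Bex1 (0.19), Cmip (0.27), the peroxiredoxin gene Prdx2 (0.35), Plxna3, a semaphorin receptor gene (0.38), and Ostf1 (0.41). Bex1 was at most 3.11 points from Ebf1 at any age.

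Nearest to probe 207 of Ebf3 were Dpysl3, a gene of axon growth (0.81), Cd24a, a surface protein gene of immature neurons (1.16), Tead2, a transcription factor gene (1.22), Sox4, another (1.27), and Rrm2, a ribonucleotide reductase gene of dividing cells (1.29). Nearest to probe 801 were Syt5, a synaptotagmin gene (0.39), Emp1 (0.51), Sfrp2, a secreted Wnt antagonist gene (0.56), the imprinted gene Mest (0.66) and Syce2 (0.81). The probes of Ebf3 shared 0 of their nearest 5. Nearest to En1 were Smarcc1, a subunit gene of a chromatin remodelling complex, and Pcna, the replication clamp gene (both 0.28), then Maged2 (0.32), the peroxiredoxin gene Prdx4 (0.40) and Hnrnpab, an RNA-binding protein gene (0.41). All 5 of these stood at 84.0% or more at P7 and at 34.0% or less at P14, as En1 did apart from its 83.14% at P7. The choice of distance changed these lists unequally: by percent distance 5 of the 5 stayed for Ebf1, 3 for En1, 2 for Ebf2, 2 for probe 801 and 1 for probe 207.

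**Figure D4:**
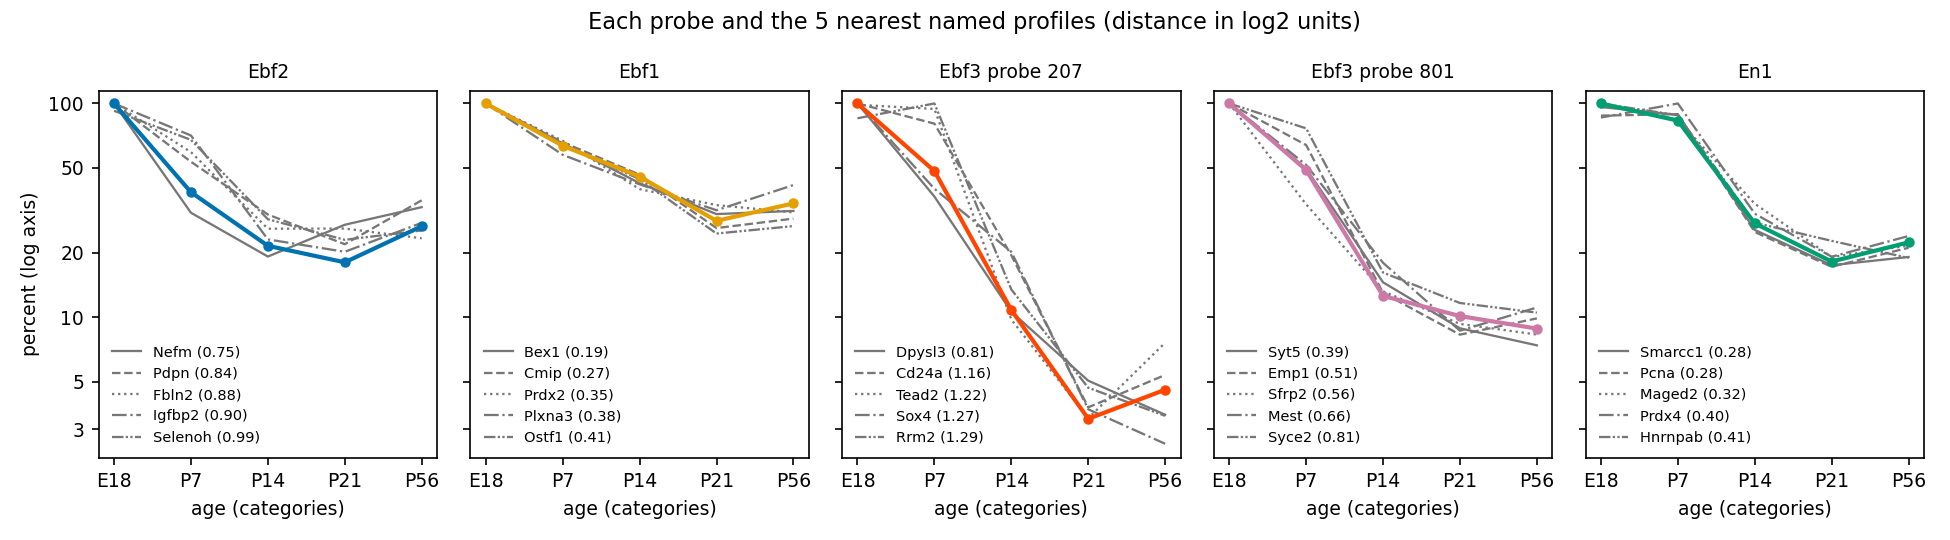
Percent on a logarithmic axis against age for each of the 5 member probes (coloured) with the 5 nearest named profiles (grey lines, distance in brackets). The neighbours of En1 lie within 0.41 and those of Ebf1 within 0.41, while those of Ebf2 begin at 0.75 and those of probe 207 of Ebf3 at 0.81.

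Genes that share a role with the members were taken from lists of known genes. Of 25 genes of patterning at the midbrain and hindbrain boundary 3 beside En1 had a named probe, and all 3 were lower at P56 than at E18 by 2-fold or more: Meis1 and Pbx3, which encode homeobox proteins, fell 3.51-fold and 3.09-fold, and Dusp6, a feedback inhibitor gene of fibroblast growth factor signalling, fell 2.33-fold. Their median was -1.63, against -1.07 for all named genes; 0 of the 3 passed 2-fold with columns divided by their medians and 2 with quantile normalization. Pbx3 and Meis1 had 100% at E18 as En1 did, while Dusp6 was still at 91.9% at P14, when En1 stood at 27.49%. Of 10 transcription factor genes and others of the rhombic lip, granule cells and cerebellar nuclei, 5 fell and 1 rose, with a median of -0.76. With columns divided by their medians 2 fell and 3 rose and the median turned to 0.25, and with quantile normalization 3 fell and 3 rose with a median of 0.15. Mycn fell 40.7-fold, Nhlh1 fell 5.93-fold and Meis1 3.51-fold, and Etv1 rose 10.3-fold.

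Of 24 gene symbols listed for Purkinje cells, the neurons in which Ebf2 is known to act, 6 had a named probe. Ptf1a, Skor2, Lhx1, Lhx5, Foxp2 and Rora were among those without one. Of the 6, 5 went the other way from the members and were 2-fold or more higher in the adult. The median difference of the 6 was 1.68, against -1.07 for all 773 named genes, of which 170 rose. Pvalb, a calcium-binding protein gene, rose 40.8-fold, Etv1, the transcription factor gene of the list above, 10.3-fold, Pcp2, a Purkinje cell gene, 3.67-fold, Gad1, an enzyme gene of GABA synthesis, 2.80-fold and Calb1, the calbindin gene, 2.48-fold. Dab1, a gene of reelin signalling, went from 100% to 44.1% at P7, the only one of the 6 that shared the highest age of the members, and stood at 53.5% at P56. Of the genes of Purkinje cell stripes beside Ebf2, Slc1a6, a glutamate transporter gene, rose 3.31-fold, and the neuropeptide gene Npy had 47.1% at E18 and 83.4% in the adult.

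Genes of immature neurons, of dividing cells and of other cells in the tissue moved with age at the same time. All 9 measured genes of immature neurons fell from E18 to P56, when 408 of all 773 named genes fell and 170 rose. The mean percent of the 9 was 92.2, 79.1, 40.2, 16.6 and 12.9 at the 5 ages. Igfbpl1 was at least 61.0-fold lower, since values under 1% were set to 1%, and Sox11, Sox4 and Dpysl3 fell 52.2-fold, 39.1-fold and 28.6-fold. From E18 to P7 2 of the 9 fell, Sox4 from 100% to 39.9% and Dpysl3 from 100% to 36.7%, in the step in which 2.79% of all probes did. All 19 measured genes of dividing cells fell as well, with means of 81.6, 96.3, 14.5, 7.36 and 7.57. In that list 1 gene rose and 0 fell from E18 to P7, and all 19 fell from P7 to P14, against 2.79% and 24.7% of all probes that fell in these steps.

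Ebf genes are also known from connective tissue and vessel wall cells, and 12 genes of meninges, mural and endothelial cells were measured. Of these 10 fell and 0 rose by P56, when 408 of all 773 named genes fell and 170 rose. The median of the 12 was -1.94, against -1.07 for all named genes, and their mean percent at the 5 ages was 90.6, 74.4, 37.0, 32.1 and 35.1. Nid1, a basement membrane gene, fell 7.90-fold, the collagen genes Col4a1 and Col3a1 fell 7.66-fold and 6.63-fold, and Serpinh1, a collagen chaperone gene, fell 7.33-fold. Ptgds and Pltp went the other way, though within 2-fold. They stood at 59.9% and 50.55% at E18, and both had their highest value, 100%, at P56. After median scaling of the columns 6 genes fell and 2 rose. Of 4 oligodendrocyte genes 3 rose and 1 fell, with means of 16.4, 31.1, 55.0, 69.2 and 44.7. The gene that fell was Pdgfra, at 63.5%, 100%, 12.8%, 4.82% and 16.8%, so the means at E18 and P7 rest largely on it. All 5 genes of astrocytes and Bergmann glia rose, with means of 8.62, 54.8, 67.4, 76.1 and 71.8. Ttr, the 1 choroid plexus gene measured, stood at 100%, 56.7%, 17.1%, 20.4% and 62.9%. The lowest value of any probe was 0.01, so a marker value above 0 does not show that its cells were present. At E18 the oligodendrocyte genes Mag and Mog stood at 0.38% and 0.47%, under the 1% to which low values were set. Mobp and Pdgfra of that list stood at 1.08% and 63.5%. The percent scale gives no level from which to judge how much of the RNA each cell type held. The part of these changes in the values of the members was not tested.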

How the data were processed

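The authors deposited 897 probes at 5 ages; per the labels every column averages 2 arrays. The deposited values were taken as percent of the age with the probe's highest signal, scaled within each array set before averaging; this reading comes from the values, and no label or header records it. For scanner, background correction, normalization, probe choice and build: not stated in what was used here. The number of arrays limits the precision. Probes were named from the array's annotation (1 symbol for 787, several for 16, none for 94), and 784 of the 787 matched a RefSeq gene table of GRCm38.p6 by gene identifier, with 0 changed.

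Values under 1% (20 values, 0 of them of a member) were set to 1% and compared as log2. Risen and fallen mean a difference of at least 2-fold. No test is possible with a single column for each age. The members and lists were chosen with earlier results of these data known. Every member was described at every age, with its 5 nearest named probes and, from each list, all genes where 6 or fewer were measured and otherwise the 4 most changed; for the lists of other cells and of dividing cells some were given as counts alone. Ptgds and Pltp were named as well, because they went the other way from the rest of their list. Probes of 1 gene were averaged for lists. Alternatives were columns divided by their medians, quantile normalization, a floor at the 10th percentile, a pseudocount of 1%, other thresholds, other ages and other distances. The calculation was tested on simulated data. Python 3.11.15, numpy and pandas were used.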

Additional observations from a re-analysis of the deposited data

How the results depend on the processing

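Each probe kept its direction and its 2-fold call for P56 against E18 under the alternatives tried, except that with columns divided by their medians Ebf2 was at -0.90 and Ebf1 at -0.54, while quantile normalization put Ebf1 at -0.96, and with P7 in place of E18 Ebf2 was at -0.53 and Ebf1 at -0.90. The count of member probes that fell was then 3 in place of 5 with columns divided by their medians. From E18 to P7 the count was 0 with a 3-fold threshold. From P7 to P14 Ebf1 turned to 0.10 with columns divided by their medians. From P14 to P21 the sign turned for Ebf2 (0.14) and probe 801 of Ebf3 (0.081) with columns divided by their medians, and for Ebf2 (0.45), probe 801 (1.03) and En1 (0.016) with quantile normalization. Probe 207 in that step was at -0.21 with quantile normalization and 0.00 after raising low values to the 10th percentile, and the count that fell was 0 with each of these and 3 with a 1.5-fold threshold. The 0.00 is set by the floor at the 10th percentile, since probe 207 was under it at P14 and P21. The difference between the Ebf3 probes from E18 to P56 was 0.95, and 0.00 with that floor, which lies above both values. The highest age was E18 for all 5 probes under both scalings. Of the 5 nearest genes, between 1 and 5 stayed over the alternatives for Ebf1, Ebf2 and probe 207, between 2 and 5 for probe 801 and between 3 and 5 for En1. Over all probes, 471 fell from E18 to P56, but 147 after median scaling of the columns, 206 after quantile normalization and 234 at 3-fold. From E18 to P7 the 25 that fell became 59 after quantile normalization, from P7 to P14 the 222 became 105 after median scaling, and from P14 to P21 the 118 became 51 and 40 under these scalings and 63 with the floor. Causes of these shifts were not tested. No paired analysis was possible because each age has 1 column. Signal over background was not analysed here.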
